A study of Mus musculus with 2 samples.

Results

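Mitochondrial carriers are the proteins that move metabolites across the inner mitochondrial membrane, and nearly all belong to the Slc25 family. The genes described here were chosen by name: every probe set whose platform annotation gives 1 gene symbol that starts with Slc25a, with the uncoupling proteins Ucp1, Ucp2 and Ucp3, which belong to the same family. The rule found 52 probe sets for 48 genes, of 35556 probe sets and 19938 genes with a single symbol in all. Some members of the family, Ucp2 and Slc25a52 among them, were not analysed here. RNA came from skeletal muscle of the hindlimb, taken from male C57BL/6J mice on standard chow, with 1 array for mice carrying a Syn4 (syntaxin 4) overexpression transgene and 1 array for wild-type mice. The sources used here do not give the age of the mice, the promoter that drives the transgene, or how many mice stand behind an array. Values are log2 intensities as deposited, and each difference is transgenic minus wild type. With 1 array per genotype no difference has a test, an SD or a replicate check, and every value below describes these 2 arrays only.

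Carriers of this family exchange substrates between cytosol and mitochondrial matrix: ADP for ATP, phosphate, the acids of the malate-aspartate shuttle, acylcarnitines, amino acids, nucleotides, iron and cofactors. Each is built from repeats of a pair of membrane helices. In muscle they bring ADP and phosphate to ATP synthase, return ATP to the contractile machinery, carry in reducing equivalents and fatty acids, and, through Ucp3, are linked to fatty acid use.

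The array labelled transgenic had the higher Stx4a signal, and both arrays had strong muscle fibre signal. Stx4a, which encodes syntaxin 4, was at 12.20 in transgenic muscle and 8.84 in wild-type muscle. The 8 muscle fibre markers (Ckm, Acta1, Mb, Des, Ttn, Myh4, Pvalb and Tnnt3) were all above the level filter in use here, 6.79, which is the median over all genes of the higher of both values. The median over all probe sets was 6.06 on each array, and precision is limited by there being only 1 array per genotype.

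Most carrier genes were slightly lower in transgenic muscle, and only a pair of them differed by 1.5-fold (0.58 on the log2 scale) or more. Slc25a30 was 2.08-fold lower and Slc25a24 was 1.58-fold higher. Of the 48 genes, 33 were below 0, 12 above 0 and 3 at 0.00, with a median of -0.08. Over all 19938 genes, 49.6% were below 0 and the median was 0.00. The share of all genes lower by 1.5-fold or more was 1.19%, and the share higher by that amount was 1.76%, and 1 of 48 carriers in each direction is near that background. At 2-fold, 1 carrier (Slc25a30) was lower and 0 were higher, against 0.221% and 0.476% of all genes. Among genes with a mean level at or above the median of that mean, 27 of 36 carriers and 44.2% of all genes were below 0. The next members inside the limit were Slc25a47 at -0.46 and Slc25a36 at -0.45 on the low side, and Slc25a32 at 0.35 on the high side. In total 35 of the 48 genes reached the level filter, and the other 13 had differences from -0.43 to 0.14, of which 7 were below 0, 5 above and 1 at 0.00. In tissue RNA, fewer cells of a type and less RNA per cell cannot be told apart.

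**Figure D1:**
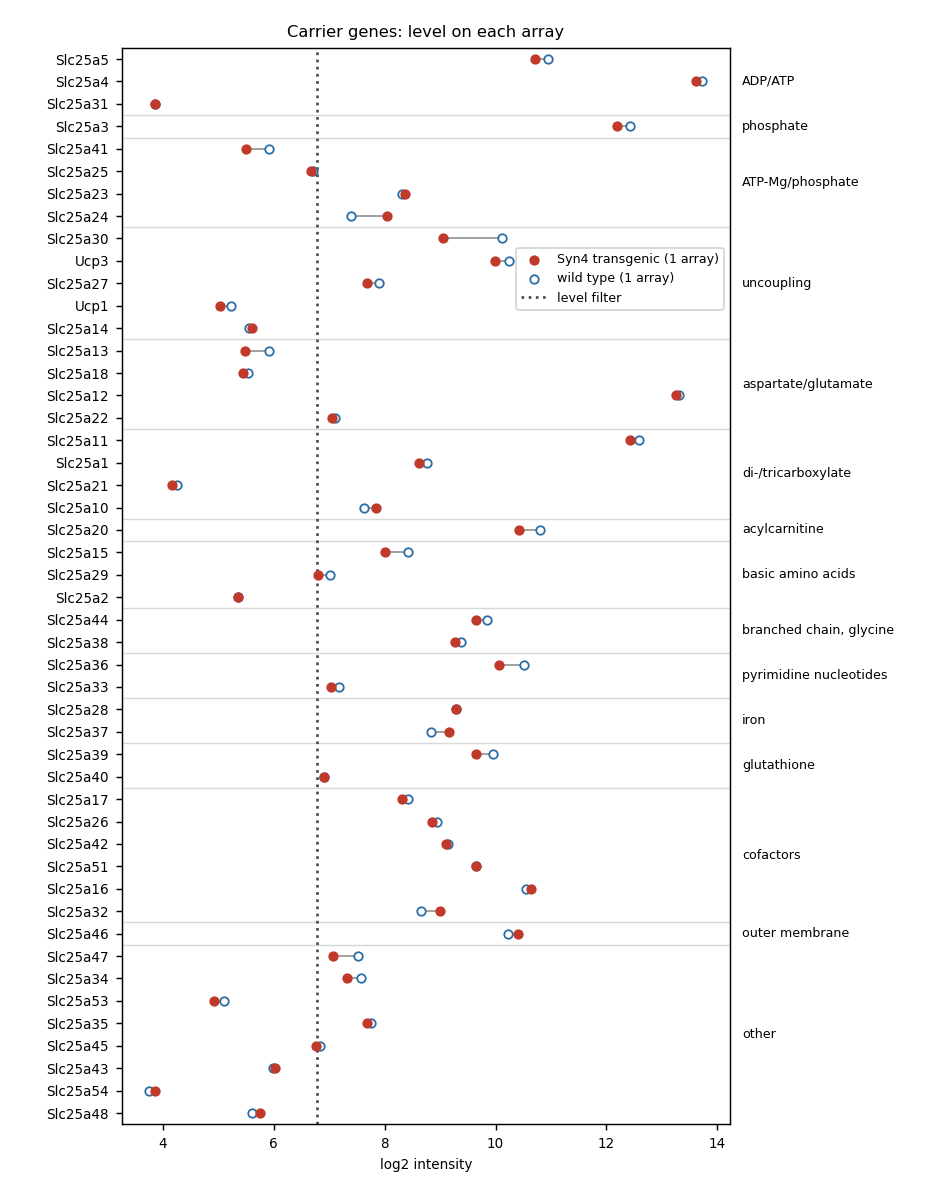
Log2 intensity of each of the 48 carrier genes (rows, grouped by substrate) on the Syn4 transgenic array (filled red) and on the wild-type array (open blue), 1 array each with no error bars. The dotted line is the level filter of 6.79. Points of one row may be compared with each other but not with other rows. Slc25a30 and Slc25a24 have the widest gaps, in opposite directions.

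The largest difference of the family belonged to an uncoupling protein relative. Slc25a30, called kidney mitochondrial carrier after the tissue where it was described and close in sequence to the uncoupling proteins, had 9.05 in transgenic muscle and 10.11 in wild-type muscle. Its difference of -1.06 was the fourth largest in size among the 501 genes nearest in mean level. The scatter of differences among those genes, as a scaled median absolute deviation, was 0.21, a description of these arrays only. The 3 measured genes on either side of it on chromosome 14 lay between -0.34 and 0.73. Cog3, a subunit of a Golgi tethering complex, was at 0.39, and Tpt1, which encodes the translationally controlled tumour protein, was at -0.03. Erich6b (-0.34) and Snora31 (0.73) were under the level filter, Siah3 was at -0.18 and Gtf2f2, a subunit of a general transcription factor, at 0.28.

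The other members of the uncoupling branch were closer between the arrays. Ucp3, the uncoupling protein of skeletal muscle, had 9.99 in transgenic muscle and 10.25 in wild-type muscle. Slc25a27, a relative described in brain, had 7.69 in transgenic muscle against 7.90 in wild-type muscle, a difference of -0.21. These members, Slc25a30 and Ucp1 were on the low side in transgenic muscle, and Slc25a14, another relative described in brain, was at 0.05. Ucp1, the heat-producing protein of brown fat, was at 5.04 in transgenic muscle and 5.23 in wild-type muscle, both under the 95th percentile of olfactory receptor genes (5.47), a guide to dim signal. Slc25a14 was also dim, at 5.61 in transgenic muscle and 5.56 in wild-type muscle.

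The one carrier gene higher by 1.5-fold was a calcium-regulated ATP-Mg/phosphate carrier. Such carriers add to or drain the matrix pool of adenine nucleotides when cytosolic calcium rises. Slc25a24 had 8.05 in transgenic muscle and 7.39 in wild-type muscle, a difference of 0.66 that ranked 14th in size among the 501 genes nearest in level. Its paralogues did not share it. Slc25a23 had 8.36 in transgenic muscle and 8.32 in wild-type muscle. Slc25a25 was at 6.67 in transgenic muscle and 6.71 in wild-type muscle, just under the level filter. Slc25a41, a relative that lacks the calcium-binding part, was at 5.50 in transgenic muscle and 5.92 in wild-type muscle. The difference of this group ran from -0.42 to 0.66 with a median of 0.00. Slc25a54, a family member that lies next to Slc25a24 on chromosome 3, was at 3.86 in transgenic muscle against 3.76 in wild-type muscle, well under the olfactory level. Further neighbours of Slc25a24 also lay between -0.07 (Henmt1) and 0.28 (Vav3), of which Fam102b (0.20) was the only one above the level filter.

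The promoter windows of Slc25a30 and Slc25a24, the pair past 1.5-fold, are shown with those of Slc25a36 and Slc25a20, a nucleotide carrier and the acylcarnitine carrier on the low side. Other members, such as Slc25a47 (-0.46) and Slc25a15 (-0.43), were lower than Slc25a20 (-0.39) and are not shown. Sequences are from RefSeq (GRCm38.p6), 5′ to 3′ along the gene, with 250 bases before the start of transcription and 50 after it. Capitals mark exact matches, on either strand, to any of the motifs searched: the GC box GGGCGG, the CCAAT box CCAAT, the ETS core CCGGAAG, the TATA box TATAAA, the E-box CACGTG, the oestrogen-related receptor element TCAAGGTCA and the nuclear respiratory factor element GCGCATGC. None of these motifs contains another.
Slc25a30, chr14:75786988-75787287, minus strand: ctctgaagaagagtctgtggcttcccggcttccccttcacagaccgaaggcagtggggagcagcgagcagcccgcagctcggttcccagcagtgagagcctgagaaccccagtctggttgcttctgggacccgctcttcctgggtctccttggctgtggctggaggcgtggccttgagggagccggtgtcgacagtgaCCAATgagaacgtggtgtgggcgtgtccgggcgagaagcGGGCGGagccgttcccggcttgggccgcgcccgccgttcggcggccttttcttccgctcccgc
Slc25a24, chr3:109122899-109123198, plus strand: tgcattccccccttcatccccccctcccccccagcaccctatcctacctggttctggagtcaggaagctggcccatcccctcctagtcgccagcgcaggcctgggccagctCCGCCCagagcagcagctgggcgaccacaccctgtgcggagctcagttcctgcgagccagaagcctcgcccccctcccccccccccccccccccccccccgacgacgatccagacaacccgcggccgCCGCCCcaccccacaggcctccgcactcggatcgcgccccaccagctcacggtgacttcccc
Slc25a36, chr9:97110992-97111291, minus strand: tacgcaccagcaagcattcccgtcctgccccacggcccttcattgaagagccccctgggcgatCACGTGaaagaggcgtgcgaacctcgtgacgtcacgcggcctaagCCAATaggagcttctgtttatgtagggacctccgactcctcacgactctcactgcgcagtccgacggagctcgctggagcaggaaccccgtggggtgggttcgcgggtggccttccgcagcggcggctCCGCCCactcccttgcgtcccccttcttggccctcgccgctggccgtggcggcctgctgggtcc
Slc25a20, chr9:108661886-108662185, plus strand: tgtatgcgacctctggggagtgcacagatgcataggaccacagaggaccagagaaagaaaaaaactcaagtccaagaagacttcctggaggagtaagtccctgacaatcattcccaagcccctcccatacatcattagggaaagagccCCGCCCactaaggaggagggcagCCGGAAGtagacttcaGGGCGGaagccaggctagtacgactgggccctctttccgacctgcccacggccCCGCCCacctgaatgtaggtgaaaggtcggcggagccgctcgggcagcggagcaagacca
The Slc25a30 window held a CCAAT box beginning 52 bases and a GC box beginning 13 bases before the start, whereas that of Slc25a24 held GC boxes beginning 139 and 12 bases before it and no CCAAT box. In the Slc25a20 window, GC boxes began 102, 63 and 10 bases before the start, with an ETS core at 79. An E-box at 187, a CCAAT box at 142 and a GC box at 14 bases before the start were found in the Slc25a36 window. The window of Slc25a47, not shown, held CCAAT boxes and no GC box. Promoter windows were matched for 38 of the 48 carrier genes, taking the first listed start of each. Carriers without a matched window are not in the shares below. Slc25a32 and Slc25a37 on the high side and Slc25a44 and Slc25a41 on the low side are among them. A GC box was present in 30 of the 38 (78.9%) and in 35.9% of the windows of all 27025 genes. Those 27025 include genes not measured on the arrays and were not matched to the carriers for level. The CCAAT box was present in 17 carriers (44.7%, against 37.9% of all genes), the ETS core in 7 (18.4%, against 9.1%) and the E-box in 6 (15.8%, against 7.2%). The TATA box was found in 1 carrier window, that of Slc25a18 (2.6%, against 14.2%). The nuclear respiratory factor letters were found in 2 carrier windows, those of Slc25a31 and Slc25a54 (5.3%, against 2.8%), and the oestrogen-related receptor letters in none of the 38, against 0.4% of all windows. GC and CCAAT boxes stood in windows of members on both sides of 0. A match is a run of letters and not a site in use, and the members were not divided by it.

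**Figure D2:**
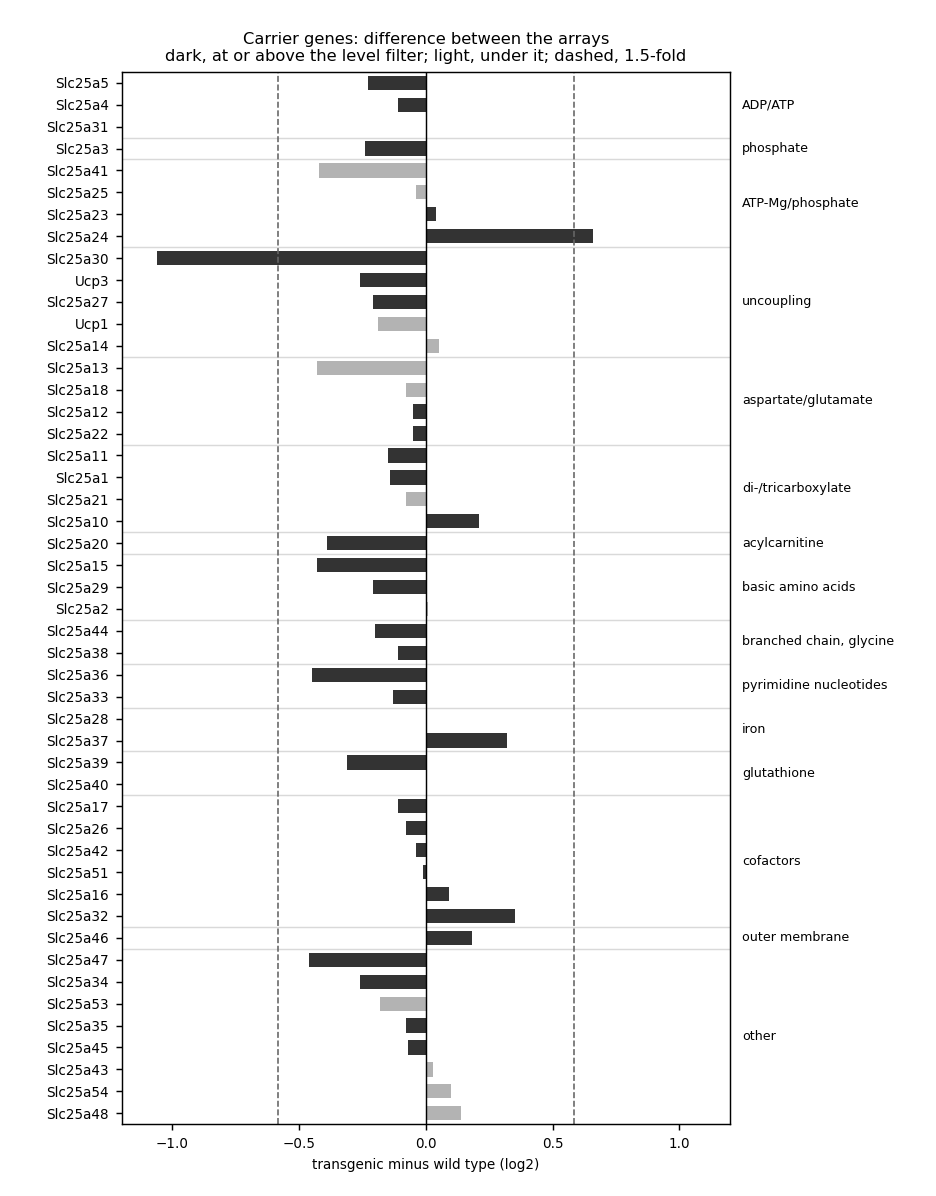
Difference of each carrier gene, transgenic minus wild type on the log2 scale (bars from 0, 1 array per genotype, no error bars), grouped by substrate. Dark bars reached the level filter of 6.79 and light bars did not. Slc25a30 at -1.06 and Slc25a24 at 0.66 are the bars past the dashed 1.5-fold lines.

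Carriers that feed ATP synthase were low by small amounts. Slc25a4, the ADP/ATP carrier of heart and skeletal muscle, had 13.62 in transgenic muscle and 13.73 in wild-type muscle. Slc25a5, the ADP/ATP carrier that most other tissues use, had 10.71 in transgenic muscle and 10.94 in wild-type muscle on its brightest probe set. All 3 probe sets annotated to Slc25a5 were lower, by -0.25, -0.20 and -0.23. Their positions in the genome were not checked, so they may not all read the Slc25a5 locus, the brightest included. Slc25a4 and Slc25a5 are alike in sequence and Slc25a5 has an annotated pseudogene, so their signals may not be fully separated. Slc25a31, the ADP/ATP carrier of germ cells, was at 3.86 in both arrays. Slc25a3, which brings in phosphate and also copper, had 12.19 in transgenic muscle and 12.43 in wild-type muscle, a difference of -0.24. All 15 measured ATP synthase subunit genes were also below 0, from -0.40 (Atp5o) to -0.02 (Atp5d), with a median of -0.15. The mitochondrial creatine kinase Ckmt2, which takes ATP from the ADP/ATP carrier, had 12.66 in transgenic muscle and 13.01 in wild-type muscle. It was the lowest of the 4 genes of the creatine shuttle, all below 0, and Ckm, the creatine kinase of the contractile machinery, was the highest at -0.03.

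Carriers of the NADH shuttles and of organic acids differed little. Slc25a12, the aspartate/glutamate carrier of muscle and brain, had 13.25 in transgenic muscle and 13.30 in wild-type muscle. Slc25a11, the oxoglutarate/malate carrier that works with it in the malate-aspartate shuttle, had 12.43 in transgenic muscle and 12.58 in wild-type muscle. The aspartate/glutamate carrier of liver, Slc25a13, was at 5.49 in transgenic muscle and 5.92 in wild-type muscle, and it was dim in both. The shuttle's carriers were thus on the low side, and those bright in muscle by no more than 0.15. Of the glutamate carriers, Slc25a22 had 7.05 in transgenic muscle against 7.10 in wild-type muscle, and Slc25a18 was at 5.45 in transgenic muscle against 5.53 in wild-type muscle. The citrate carrier Slc25a1, which exports citrate for lipid synthesis, had 8.62 in transgenic muscle and 8.76 in wild-type muscle. Slc25a10, the dicarboxylate carrier, which is abundant in adipocytes, went the other way with 7.84 in transgenic muscle and 7.63 in wild-type muscle. Slc25a21, the oxoadipate carrier, was at 4.17 in transgenic muscle and 4.25 in wild-type muscle, under the olfactory level. The 6 shuttle enzyme genes were all below 0, from Gpd1, the cytosolic glycerol phosphate dehydrogenase (-0.51), to Got2, the mitochondrial aspartate aminotransferase (-0.04).

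The acylcarnitine carrier was among the lower members. Slc25a20, which passes acylcarnitines into the matrix for oxidation, had 10.42 in transgenic muscle and 10.81 in wild-type muscle, a difference of -0.39 (1.31-fold). Cpt2, the matrix enzyme that receives its substrate, had 10.28 in transgenic muscle and 10.68 in wild-type muscle and was the lowest of the 5 measured carnitine shuttle genes. The highest was Cpt1a, the carnitine palmitoyltransferase of liver and many other tissues, at 0.52, and 4 of the 5 were below 0. Cpt1b and Acsl1, also on that list, were not analysed here.

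Amino acid carriers were level or lower. Slc25a15, the ornithine carrier of the urea cycle, had 8.00 in transgenic muscle and 8.43 in wild-type muscle. Slc25a29, a carrier of basic amino acids, had 6.80 in transgenic muscle and 7.01 in wild-type muscle. Slc25a2, a second ornithine carrier, was dim, at 5.36 in transgenic muscle and 5.35 in wild-type muscle. The branched-chain amino acid carrier Slc25a44, described in brown fat, had 9.64 in transgenic muscle and 9.84 in wild-type muscle. Among 6 genes of branched-chain catabolism, 5 were below 0, from Bckdk (-0.27), the kinase that switches off the branched-chain ketoacid dehydrogenase, to Ppm1k (0.08), the phosphatase that reverses it. Slc25a38, a glycine carrier for haem synthesis, had 9.27 in transgenic muscle and 9.38 in wild-type muscle.

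Nucleotide, iron and glutathione carriers held some of the wider gaps. Slc25a36, a pyrimidine nucleotide carrier, had 10.07 in transgenic muscle and 10.52 in wild-type muscle on its brighter probe set, and its other probe set had 8.77 in transgenic muscle against 9.08 in wild-type muscle. Both probe sets were lower, by -0.45 and -0.31. The positions of these probe sets in the genome were not checked, so the brighter one may not read the Slc25a36 locus. Slc25a33, the paralogue of Slc25a36, had 7.04 in transgenic muscle and 7.17 in wild-type muscle. The mitoferrins, which import iron for haem and iron-sulphur clusters, differed from each other: Slc25a37, prominent in red cell precursors, had 9.16 in transgenic muscle and 8.84 in wild-type muscle, while Slc25a28, the form of most tissues, was at 9.28 in both. Alas2, the red cell enzyme that begins haem synthesis, was at 0.28 (7.60 in transgenic muscle, 7.32 in wild-type muscle), while 6 of the 7 measured haem and iron-sulphur genes were below 0 (lowest Isca2, -0.36), Alas2 being the exception. Only 3 of 7 listed red cell markers were measured, and the others, Slc4a1 (-0.11) and Epb42 (0.00), were under the level filter, so the part of red cells in the Slc25a37 value was not tested. Slc25a39, a glutathione carrier, had 9.65 in transgenic muscle and 9.96 in wild-type muscle. Slc25a40, its paralogue, was at 6.91 in both arrays on its brighter probe set, and at 5.13 in transgenic muscle against 5.08 in wild-type muscle on the dimmer one.

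Cofactor carriers were close to level, with 1 exception. Slc25a32, which brings folate and flavin cofactor into mitochondria, had 9.00 in transgenic muscle and 8.65 in wild-type muscle, the second highest difference of the family at 0.35. Slc25a16, a carrier linked to coenzyme A, had 10.64 in transgenic muscle and 10.55 in wild-type muscle. The coenzyme A carrier Slc25a42 had 9.10 in transgenic muscle and 9.14 in wild-type muscle. Apart from Slc25a32, members of this group stayed within -0.11 to 0.09. The NAD carrier Slc25a51 had 9.64 in transgenic muscle and 9.65 in wild-type muscle. Slc25a26, the carrier of S-adenosylmethionine, had 8.86 in transgenic muscle and 8.94 in wild-type muscle. Slc25a17, which sits in peroxisomes, had 8.32 in transgenic muscle and 8.43 in wild-type muscle. Slc25a46, an outer membrane protein that bears on mitochondrial shape, had 10.41 in transgenic muscle and 10.23 in wild-type muscle.

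Of the 8 members without a settled substrate in muscle, 4 reached the level filter. Slc25a47, a carrier described in liver, had 7.07 in transgenic muscle and 7.53 in wild-type muscle, and its -0.46 was the second lowest difference of the family. Slc25a34 had 7.32 in transgenic muscle and 7.58 in wild-type muscle. Slc25a35 had 7.68 in transgenic muscle and 7.76 in wild-type muscle. These 4 were all lower, Slc25a45 being the last of them with 6.76 in transgenic muscle against 6.83 in wild-type muscle. Slc25a45 reached the filter through its wild-type value only, so its being lower is no separate finding. Slc25a47, Slc25a34 and Slc25a35 were above the filter on both arrays. Slc25a43 (0.03), Slc25a48 (0.14), Slc25a53 (-0.18) and Slc25a54 were under the filter.

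**Figure D3:**
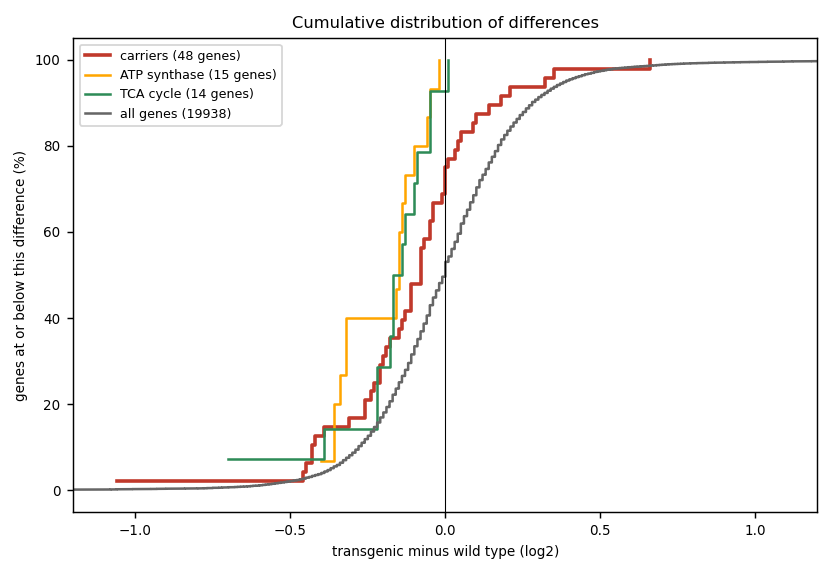
Cumulative share (percent) of genes at or below each difference, transgenic minus wild type on the log2 scale, for the 48 carriers (red), 15 ATP synthase subunits (orange), 14 TCA cycle enzymes (green) and all 19938 genes (grey); the axis leaves out differences beyond 1.2 in size. The carrier curve lies left of the curve of all genes around 0, with medians of -0.08 and 0.00, and right of the ATP synthase and TCA curves around their medians of -0.15 and -0.16. All ATP synthase and TCA genes reached the level filter. Only 35 of the 48 carriers did, and these had a median of -0.11.

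Genes that work beside the carriers were set beside them from lists chosen for function. Of 14 TCA cycle enzymes, 13 were below 0, with a median of -0.16. Idh2, the NADP-dependent isocitrate dehydrogenase of the matrix, was 1.62-fold lower (12.03 in transgenic muscle, 12.73 in wild-type muscle) and was the one gene of the functional lists past 1.5-fold, and Ogdh, an oxoglutarate dehydrogenase subunit, was highest at 0.01. Among 9 genes of the machinery that inserts carriers into the inner membrane, 8 were below 0, from Timm10, a chaperone of the intermembrane space (-0.30), to Agk (0.03), with Timm22, the channel of the insertion complex, at -0.15. The 3 outer membrane channel genes through which carrier substrates reach the cytosol were below 0, from Vdac2 (-0.13) to Vdac1 (-0.04). Mpc1, a subunit of the pyruvate carrier, which is not of the Slc25 family, was at -0.20. The 3 measured ABC transporters of mitochondria were also below 0, from Abcb10 (-0.27) to Abcb6 (-0.21). Calcium uptake genes were divided, 3 on either side of 0, from Letm1 (-0.25) to Micu2, a regulator of the calcium uniporter (0.38). Of 5 sideroflexins, 3 were below 0, from Sfxn4 (-0.46) to Sfxn1, a serine carrier (0.21). Among 12 transcriptional regulators of mitochondrial genes, 9 were below 0. The fatty acid receptor Ppara was lowest (-0.39), the corepressor Nrip1 was highest (0.26), and the coactivator Ppargc1a was at -0.05.

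**Figure D4:**
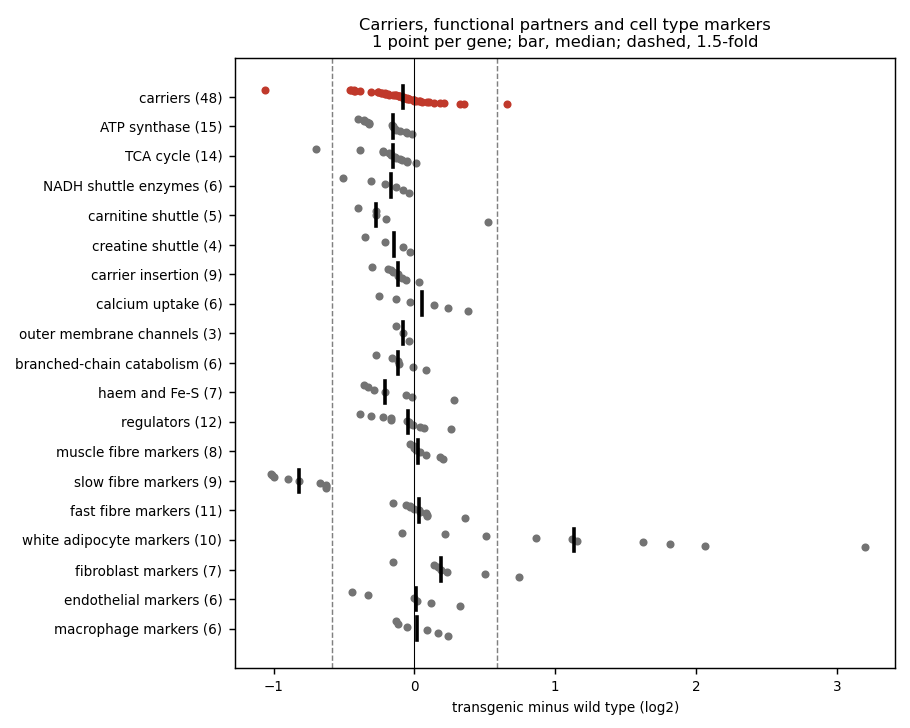
Differences of single genes (points), transgenic minus wild type on the log2 scale, for the carriers (red), lists of functional partners and lists of cell type markers (grey), with the number of measured genes in brackets and the median as a bar. Partner lists lie mostly just left of 0, with medians from -0.27 to 0.06, slow fibre markers lie left of the 1.5-fold line and white adipocyte markers reach far to the right.

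Markers of fibre types and of other cells differed between the arrays as well. All 9 slow fibre markers were lower by 1.5-fold or more in transgenic muscle, with a median of -0.82, and their summed level was 14.97 there against 15.76 in wild-type muscle. They ran from Myl3, a slow myosin light chain (-1.02), through Tnnc1 (-1.01), Tnnt1 (-0.90), Myh7 (-0.82) and Atp2a2 (-0.67) to Csrp3, Tpm3 and Myl2 (each -0.63), with Tnni1 at 10.37 in transgenic muscle and 11.37 in wild-type muscle. Fast fibre markers were near level, with none of 11 past 1.5-fold and differences from -0.15 (Myh2) to 0.36 (Myh1). Their summed level was 17.42 in transgenic muscle and 17.39 in wild-type muscle. Slow fibres are rich in mitochondria, and Slc25a30 and most other carriers were lower in the array with the lower slow fibre signal. The part of fibre type in those differences was not tested.

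White adipocyte markers were higher by 1.5-fold or more for 7 of 10 genes, with a median of 1.14, from Pnpla2 (-0.09) to Lep, leptin (3.20). Adipoq (2.06), Cidec (1.81), Plin1 (1.62), Retn (1.15), Pck1 (1.12) and Slc7a10 (0.86) were the others. Their summed level was 13.16 in transgenic muscle and 12.60 in wild-type muscle. The brightest genes weigh most in that sum, and these were nearly level. Fabp4 had 11.42 in transgenic muscle and 11.20 in wild-type muscle, and Pnpla2 had 11.12 and 11.21. Fibroblast markers were above 0 for 6 of 7 genes, from Thy1 (-0.15) to Lum (0.74, the one past 1.5-fold), and their summed level was 13.89 in transgenic muscle and 13.70 in wild-type muscle. Slc25a24 and Slc25a10 were on the same side as these markers, and the part of fat or connective tissue in their values was not tested. Of 8 measured brown adipocyte markers, all were below 0, from Zic1 (-1.04) to Dio2 (-0.04), and their summed level was 14.52 in transgenic muscle and 14.69 in wild-type muscle. Only 4 of the 8 reached the level filter, and the defining markers Ucp1 and Cidea did not. Of these 4, Cox8b, Cox7a1 and Ppargc1a are also expressed by muscle fibres. The other was Zic1, the only one of the list past 1.5-fold, with 6.02 in transgenic muscle and 7.06 in wild-type muscle. Zic1 reached the filter through its wild-type value only, so its side of 0 is no separate finding. The 4 measured Schwann cell markers were above 0, from Sox10 (0.09) to Mbp (0.51), with a summed level of 11.86 in transgenic muscle and 11.46 in wild-type muscle. Endothelial markers ran from Kdr (-0.44) to Vwf (0.32), with a summed level of 12.35 in transgenic muscle and 12.43 in wild-type muscle. Macrophage markers ran from Fcer1g (-0.13) to Mrc1 (0.24), and their summed level was 11.08 in transgenic muscle against 10.99 in wild-type muscle. The red cell markers summed to 8.16 in transgenic muscle and 8.01 in wild-type muscle.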

How the data were processed

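The authors deposited log2 intensities of 35556 probe sets on 2 arrays, 1 per genotype. Per the submitters' processing notes they used RMA in Partek. The sources used here give neither steps nor versions, and the log base was taken as 2 because RMA gives it. RMA compresses large ratios, so folds may be understated.

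Probe sets were named through the platform annotation, whose symbols can be out of date. The symbols of all 48 carriers were the same in RefSeq (GRCm38.p6) through Entrez identifiers. A gene with several probe sets took the one with the highest mean of both arrays. Differences were computed on the deposited values, with 1.5-fold as the rule of size. The members and all lists were chosen with earlier results of these data known. The text names every carrier, list genes past 1.5-fold and the ends of each list, the target gene, and other list genes for their role. Summed levels add the linear intensities of a list and return to log2. Alternatives were averaged probe sets, genes with 1 probe set, median centring, loess (span 0.3, 3 robustifying iterations), repeated quantile normalization, level filters, 2-fold, and the mean. Python 3.11.15, pandas 2.3.3 and statsmodels 0.14.6 were used, and the steps were tested on simulated data. The simulated data had less scatter than these arrays, so that test checks the steps and says nothing of the calls made here. A planned comparison of protein sequences was not made.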

Additional observations from a re-analysis of the deposited data

How the results depend on the processing

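With 1 array per genotype no error can be given, and no alternative replaces replication. No paired analysis was possible because each genotype has 1 array. Over 237 recomputed values of single carriers (5 alternatives of probe set or scaling), none moved by more than 0.07, and the one sign change was Slc25a23 at -0.02 after repeated quantile normalization. Slc25a30 and Slc25a24 were the pair past 1.5-fold under each of these. For the 45 carriers with 1 probe set, averaging and the limit to 1 probe set return the same value by construction. Median centring changes nothing, because the median was 6.06 on both arrays. Only loess and repeated quantile normalization could thus move the values of these 45 carriers. At 2-fold, 0 carriers were higher and 1 lower. The count below 0 was 35 of 48 after loess, 37 after repeated quantile normalization and 27 of 36 with a filter on the mean level, where 44.2% of all genes were below 0. The median of the carriers lay between -0.11 and -0.08, while that of all genes was at most 0.03 in size. After repeated quantile normalization the medians of the calcium uptake (-0.003), endothelial (-0.015) and macrophage (-0.002) lists turned negative, as did the endothelial median after loess (-0.012). The ATP-Mg/phosphate carrier median of 0.00 became -0.016 after loess and -0.04 after repeated quantile normalization. With the latter, the red cell marker median went from 0.00 to -0.01 and the ABC transporter median from -0.23 to -0.285. The regulator median was -0.10 with averaged probe sets. With genes of 1 probe set only, which leaves out Slc25a5, Slc25a36 and Slc25a40, medians were -0.055 for ADP/ATP, -0.31 for glutathione and -0.13 for pyrimidine carriers. Counts below 0 and list medians were recomputed as alternatives chosen after seeing the data. Dim carriers (13 under the level filter) limit what the family's count can show.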
